A study of Homo sapiens with 13 samples.

Results

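The genes described here are 10 Wnt feedback and TCF target genes, AXIN2, NKD1, NKD2, DKK1, DKK4, NOTUM, SP5, TCF7, LEF1 and APCDD1, listed by name and followed in SW480 cells treated with iron chelators. Of the 10, 9 had a row named by their symbol among the 18404 genes tested, each with 1 transcript cluster. TCF7 had none, so its expression is not analysed here. SW480 is an established human colon cancer line, and all groups were cultures of this single line. Cells were kept for 6 h in 0.1% DMSO, the solvent (n = 4), 100 mM DFO (n = 4), 50 mM Deferasirox (n = 3) or 10 mM OICR623 (n = 2), and total RNA was hybridised to 13 Affymetrix Human Gene 1.0 ST arrays, 1 per culture. Doses are given as labelled; they are very high for cultured cells, and whether another unit was meant could not be settled. Deferasirox and DFO, which is deferoxamine, bind iron and are used in patients with iron overload, whereas for OICR623 the labels give a code name alone.

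In the absence of a Wnt ligand, a complex of APC, Axin, GSK3 and CK1 marks beta-catenin for degradation. When the complex fails, beta-catenin enters the nucleus, binds factors of the TCF/LEF family and activates their target genes. Many of the targets encode inhibitors of the same pathway, and their RNA is widely used as a reading of its activity. SW480 cells carry truncated APC, so beta-catenin signalling in them runs without a ligand, and inhibitors that act at the cell surface, such as the DKK proteins, act upstream of that defect.

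The RefSeq promoter table (GRCh38.p14; 250 bases before to 50 after the annotated start) held 6 of the 10 genes: SP5, LEF1, NKD2, TCF7, DKK1 and APCDD1. The LEF1 window (chr4:108166252-108166551, minus strand) lies inside the gene, whose span ends at 108168932. The TCF7 windows start at 134115363 and 134123368, inside a gene that starts at 134108218. The outermost starts of LEF1 and TCF7 were therefore not searched. The TCF/LEF core, searched as CTTTGAA and CTTTGAT on both strands, was found in the windows of SP5 and DKK1 and in no window held for the other 4 genes. Of all 35116 windows in the table, 6.86% held it. SP5 had 3 matches, starting 148, 109 and 84 bases before the start site, and DKK1 had 1, starting 95 bases before it. The hypoxia response core, searched as ACGTG and GCGTG on both strands and found in 48.4% of all windows, had 1 match, in NKD2. A match describes letters and is not a measured binding site. The windows of SP5 (chr2:170715087-170715386, plus strand) and DKK1 (chr10:52314031-52314330, plus strand) are shown because they hold the TCF/LEF core, which is in capitals.
SP5: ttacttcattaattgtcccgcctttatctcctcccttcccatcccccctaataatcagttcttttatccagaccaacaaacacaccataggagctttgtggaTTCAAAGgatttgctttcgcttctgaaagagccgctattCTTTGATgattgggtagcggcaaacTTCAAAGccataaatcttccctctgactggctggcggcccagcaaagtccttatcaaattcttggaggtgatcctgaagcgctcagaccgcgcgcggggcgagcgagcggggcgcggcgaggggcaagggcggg
DKK1: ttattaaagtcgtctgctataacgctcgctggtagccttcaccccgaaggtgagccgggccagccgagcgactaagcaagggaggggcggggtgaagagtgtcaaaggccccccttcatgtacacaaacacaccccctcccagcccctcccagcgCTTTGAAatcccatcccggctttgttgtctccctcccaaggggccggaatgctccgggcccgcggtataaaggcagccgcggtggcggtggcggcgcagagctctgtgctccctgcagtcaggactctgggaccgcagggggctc

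Values are log2 signals as deposited, so a difference of 1 is a doubling. The arrays fell into 3 levels by their median signal, a high level (7.17 to 7.19) with DMSO 1 and DFO 1, a low level (6.52 to 6.55) with DMSO 4, DFO 4 and Deferasirox 3, and a middle level (6.64 to 6.69) with the other 8 arrays. Differences between groups are from a limma fit to all 13 arrays with this level as a block, with 95% intervals, and calls were made where the p, adjusted by Benjamini-Hochberg across the 18404 genes, was under 0.05. As a check of the treatments, VEGFA, an angiogenic growth factor, and EGLN3, a hydroxylase that acts on HIF, rose under DFO (by 1.69, SE 0.11, and 1.98, SE 0.10), Deferasirox (by 1.76, SE 0.12, and 1.94, SE 0.11) and OICR623 (by 1.02, SE 0.14, and 1.71, SE 0.12). Of 8 intestinal epithelial markers 4 lay above the median of all genes, EPCAM, KRT8, KRT18 and CDX2 with mean signals of 9.64, 12.67, 13.02 and 8.79, while KRT20, CDH1 and GPA33 (5.28, 5.52 and 5.63) and VIL1 lay below it. CDX2, an intestinal transcription factor gene, fell under DFO (-0.49, SE 0.08) and Deferasirox (-0.77, SE 0.09) and stood at -0.44 under OICR623; its part in the Wnt gene results was not tested. Among the defining markers of other cells, PTPRC (leukocytes), DCN and LUM (fibroblasts) lay at 3.38, 3.32 and 3.27. The 7 fibroblast markers measured ranged from 3.27 to 7.77, with 1 above the median of all genes (COL1A1), and the 5 leukocyte markers from 3.38 to 9.18, also with 1 above it (CD68, a macrophage marker). None of the 7 fibroblast and 5 leukocyte markers measured was called, and no detection calls come with the values.

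The levels touched the Wnt genes unequally. The high level lay above the middle level by 0.58 for the median of all genes, but by 1.49 for DKK1 and 0.99 for AXIN2. For 6 others, LEF1, SP5, NKD1, APCDD1, NKD2 and NOTUM, this shift was 0.15 to 0.40. DKK4 went the opposite way, with a shift of -0.75. The low level lay below the middle level for all 9 genes, by -0.60 for DKK1 and -0.19 for DKK4 at the extremes, against -0.15 for the median of all genes. What the levels stand for was not tested.

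**Figure D1:**
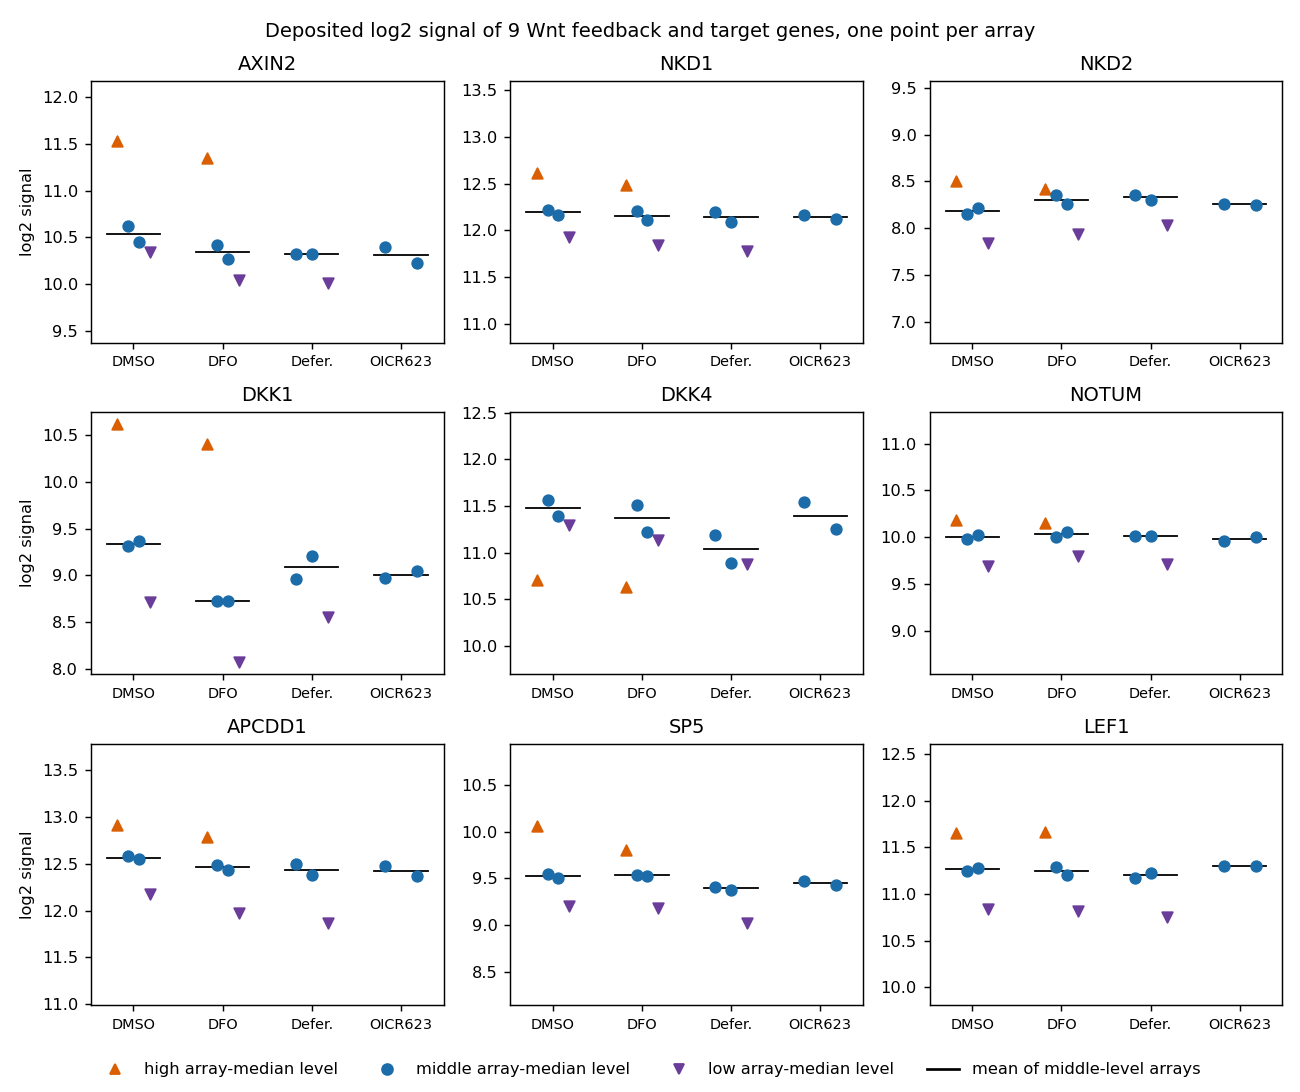
Deposited log2 signal (y axis) of the 9 measured genes in each array, by treatment (x axis; Defer. is Deferasirox). Symbols mark the array-median level and bars the mean of the middle-level arrays; each panel spans 2.8 log2 units. Every gene but DKK4 is highest, and DKK4 lowest, in the high-level arrays DMSO 1 and DFO 1. The rise in these arrays is largest for DKK1 and AXIN2.

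By calls against DMSO, 1 of the 9 genes fell under DFO (DKK1), 2 fell under Deferasirox (AXIN2 and DKK4) and 0 were called under OICR623. None was called as higher under any compound. With 2 OICR623 arrays, an absent call does not show an absent difference. Over all genes, 2.72% fell and 1.89% rose under DFO, 3.0% fell and 2.83% rose under Deferasirox, and 0.397% fell and 0.337% rose under OICR623. The median difference of the 9 genes was -0.07 under DFO, -0.17 under Deferasirox and -0.08 under OICR623, while the median of all genes was 0.00 in each case. In each of the 3 comparisons 7 of the 9 genes had a value below 0, as did 48.9%, 49.0% and 48.5% of all genes. The 7 were not the same: AXIN2, NKD1, DKK1, DKK4, APCDD1 and SP5 lay below 0 under every compound, LEF1 under DFO and Deferasirox, and NOTUM under OICR623. Under OICR623 that count depended on the setting: 5 genes lay below 0 without a block and 4 with the array median as a covariate, median-centred or quantile-normalised arrays. With replicate numbers blocked over all arrays the OICR623 count was 8. The count was 6 to 7 under DFO and 7 to 9 under Deferasirox over the same and the other settings. The 3 comparisons share the DMSO arrays. In 1 test of any difference among the 4 groups DKK1 passed (adjusted p = 0.012) and the other 8 did not, against 4.27% of all genes called. Without a block 0 of the 9 genes were called in any comparison with DMSO (0 also at an unadjusted p under 0.05), where 0.245%, 0.234% and 0.0380% of all genes were called under DFO, Deferasirox and OICR623. In a bulk lysate, fewer cells expressing a gene and less RNA per cell cannot be told apart.

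**Figure D2:**
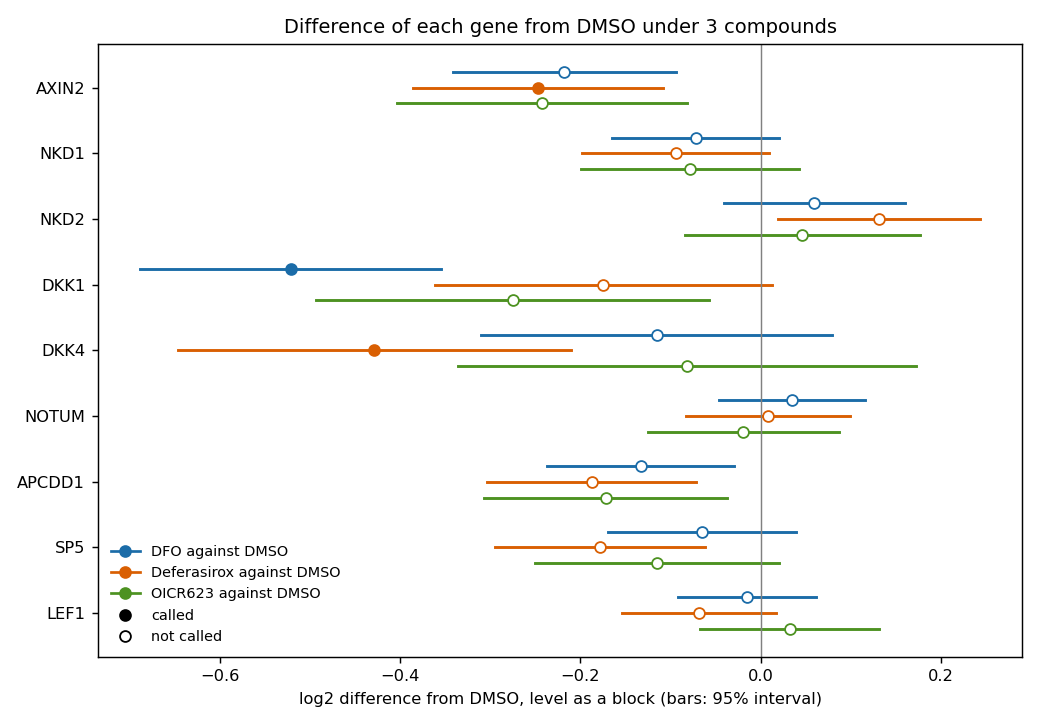
Log2 difference from DMSO (x axis) of each gene (y axis) under DFO, Deferasirox and OICR623, estimated with the level block. Bars are 95% intervals and filled points are called genes; DKK1 under DFO (-0.52) and DKK4 (-0.43) and AXIN2 (-0.25) under Deferasirox are filled.

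AXIN2 is a scaffold of the complex that degrades beta-catenin, and its RNA is one of the most used readings of TCF activity. Its signal was 11.53, 10.62, 10.45 and 10.35 in DMSO 1 to 4 and 11.35, 10.42, 10.27 and 10.04 in DFO 1 to 4. It was 10.32, 10.32 and 10.02 in Deferasirox 1 to 3, and 10.40 and 10.23 in OICR623 1 and 2. The raw groups overlap, and the high-level arrays DMSO 1 and DFO 1 stand above all others. Among arrays of 1 level, every treated array lay below every DMSO array, under each compound. The DFO difference was -0.18 in the high, -0.19 in the middle and -0.31 in the low level, that of Deferasirox -0.21 and -0.33 in the middle and low levels, and that of OICR623 -0.22 in the middle level. In the fit AXIN2 fell under Deferasirox to 0.843 of the DMSO level (-0.25, interval -0.39 to -0.11, adjusted p = 0.044). Under DFO it stood at -0.22 (interval -0.34 to -0.09, adjusted p = 0.056) and under OICR623 at -0.24 (interval -0.40 to -0.08, adjusted p = 0.22), neither of them called. With replicate numbers blocked, on the 8 DFO and DMSO arrays, the DFO value was called (adjusted p = 0.038), and also without DMSO 3 or without either OICR623 array (adjusted p = 0.036 to 0.042). The DFO value was called as well when dim genes were left out (adjusted p = 0.030) and with trended, robust moderation (adjusted p = 0.0069). Of 11 alternative settings, 3 called it. The Deferasirox call was lost in 9 of the 13 fits that left out 1 array, those without DMSO 1, 2 or 4, DFO 1, 2 or 4, or any Deferasirox array; over all 13 the difference lay between -0.29 and -0.21 and the adjusted p between 0.031 and 0.19. It was also lost without a block (-0.52, adjusted p = 0.91) and with replicate numbers blocked over all arrays (-0.66, adjusted p = 0.15). The latter block puts Deferasirox 1, of the middle level, beside DMSO 1 and DFO 1 of the high level. Of 10 alternative settings for the Deferasirox difference, 2 kept the call, leaving out dim genes (adjusted p = 0.024) and trended, robust moderation (adjusted p = 0.0057). No difference between compounds was called for AXIN2: they were -0.03 for Deferasirox against DFO (interval -0.17 to 0.11), -0.03 for OICR623 against DFO (-0.19 to 0.14) and 0.00 for OICR623 against Deferasirox (-0.16 to 0.17).

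NKD1 and NKD2 encode proteins that bind Dishevelled and restrain Wnt signalling. NKD1 ranged from 11.93 to 12.61 in DMSO, 11.84 to 12.49 in DFO, 11.78 to 12.19 in Deferasirox and 12.12 to 12.16 in OICR623. Its differences from DMSO were -0.07 (interval -0.17 to 0.02), -0.09 (-0.20 to 0.01) and -0.08 (-0.20 to 0.04) under DFO, Deferasirox and OICR623, and none was called (adjusted p = 0.33 to 0.70). NKD2 ranged from 7.85 to 8.50 in DMSO, 7.94 to 8.42 in DFO, 8.03 to 8.35 in Deferasirox and 8.25 to 8.26 in OICR623. It stood above 0 in all 3 comparisons, at 0.06 (-0.04 to 0.16), 0.13 (0.02 to 0.24) and 0.05 (-0.08 to 0.18), without a call (adjusted p = 0.19 to 0.87). For Deferasirox the NKD2 value was -0.06 when replicate numbers were blocked over all arrays. Within levels NKD2 was higher in DFO than in DMSO in the middle (0.12) and low (0.09) levels and lower in the high level (-0.09).

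DKK1 encodes a secreted protein that blocks the Wnt coreceptors LRP5 and LRP6. Its signal was 10.62, 9.32, 9.36 and 8.72 in DMSO 1 to 4 and 10.40, 8.73, 8.73 and 8.07 in DFO 1 to 4. It was 8.96, 9.21 and 8.55 in Deferasirox 1 to 3, and 8.97 and 9.05 in OICR623 1 and 2. Every DFO array lay below the DMSO array or arrays of its level, with differences of -0.61 in the middle, -0.65 in the low and -0.22 in the high level. After the level was removed, the DMSO arrays lay between 9.13 and 9.36 and the DFO arrays between 8.68 and 8.91, without overlap. DKK1 fell under DFO to 0.696 of the DMSO level (-0.52, SE 0.08, interval -0.69 to -0.35, adjusted p = 0.0023), and ranked 94 from the lowest of the 18404 differences. The call held in all 13 fits without 1 array (differences -0.62 to -0.48, adjusted p = 4.3e-04 to 0.016). It was lost without a block, with replicate numbers blocked over all arrays, and with median-centred or quantile-normalised arrays (adjusted p = 1 in each), at differences of -0.52 to -0.50. The replicate block on the 8 DFO and DMSO arrays kept the call (adjusted p = 0.026).

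DKK1 was not called under Deferasirox (-0.17, interval -0.36 to 0.01, adjusted p = 0.32) or OICR623 (-0.28, interval -0.49 to -0.06, adjusted p = 0.32). In the middle level both Deferasirox arrays and both OICR623 arrays lay below both DMSO arrays and above both DFO arrays. Levels with the block removed were lowest in DFO (8.76), then OICR623 (9.01), Deferasirox (9.11) and DMSO (9.28), and no neighbours in that order differed by the test. DKK1 was higher in Deferasirox than in DFO by 0.35 (interval 0.16 to 0.53) and in OICR623 than in DFO by 0.25 (0.03 to 0.46), but neither difference was called over all genes (adjusted p = 0.20 and 0.82); the first was called with an intensity trend and robust moderation (adjusted p = 0.046). A response of DKK1 particular to DFO is not shown by these tests.

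DKK4 encodes a relative of DKK1 and, like it, a secreted antagonist. Its signal was 10.71, 11.57, 11.40 and 11.30 in DMSO 1 to 4 and 10.64, 11.51, 11.23 and 11.14 in DFO 1 to 4. It was 11.19, 10.89 and 10.88 in Deferasirox 1 to 3, and 11.54 and 11.25 in OICR623 1 and 2. The Deferasirox arrays lay below the DMSO arrays of their level, by -0.45 in the middle and -0.42 in the low level, but above DMSO 1 of the high level. DKK4 fell under Deferasirox to 0.743 of the DMSO level (-0.43, SE 0.10, interval -0.65 to -0.21, adjusted p = 0.029). The call was lost without DMSO 2, DMSO 4, Deferasirox 2 or Deferasirox 3 (adjusted p = 0.092 to 0.12), and the difference shrank to -0.10 with median-centred and -0.06 with quantile-normalised arrays, neither called. It was -0.26 without a block and -0.25 with replicate numbers blocked over all arrays (adjusted p = 0.91 and 0.44). The call was also lost with the array median as a covariate (-0.42, adjusted p = 0.30) and in the middle level alone (-0.45, adjusted p = 0.27). Fits to the groups compared only and to all transcript clusters lost it too (adjusted p = 0.056 and 0.081). Of 10 alternative settings for this difference, 2 kept the call. Under DFO DKK4 stood at -0.12 (interval -0.31 to 0.08) and under OICR623 at -0.08 (-0.34 to 0.17), with overlapping middle-level arrays in both cases, and without a block the OICR623 value was 0.15. Deferasirox lay below DFO by -0.31 (interval -0.53 to -0.09, adjusted p = 0.29), and OICR623 lay above Deferasirox by 0.35 (0.09 to 0.61, adjusted p = 0.41), which were not called.

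APCDD1 encodes a membrane glycoprotein that inhibits Wnt signalling at the cell surface. Its signal was 12.91, 12.58, 12.55 and 12.17 in DMSO 1 to 4, 12.79, 12.49, 12.44 and 11.97 in DFO 1 to 4, 12.50, 12.38 and 11.86 in Deferasirox 1 to 3, and 12.48 and 12.37 in OICR623 1 and 2. As for AXIN2, every treated array lay below every DMSO array of its level. The differences, -0.13 (interval -0.24 to -0.03) under DFO, -0.19 (-0.30 to -0.07) under Deferasirox and -0.17 (-0.31 to -0.04) under OICR623, were not called (adjusted p = 0.17, 0.067 and 0.32). The Deferasirox value passed when dim genes were left out (adjusted p = 0.037), with trended, robust moderation (adjusted p = 0.0048) and without Deferasirox 1 (-0.24, adjusted p = 0.036). The DFO value passed with trended, robust moderation (adjusted p = 0.027).

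NOTUM encodes a secreted enzyme that removes the lipid from Wnt ligands. It ranged from 9.69 to 10.18 in DMSO, 9.80 to 10.15 in DFO, 9.71 to 10.02 in Deferasirox and 9.96 to 10.01 in OICR623. Its differences were 0.03 (interval -0.05 to 0.12), 0.01 (-0.08 to 0.10) and -0.02 (-0.12 to 0.09) under DFO, Deferasirox and OICR623, none of them called (adjusted p = 0.75 to 0.96).

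SP5 and LEF1 encode DNA-binding factors of the pathway: SP5 is a Sp-family factor induced by Wnt signals, and LEF1 is a partner of beta-catenin on DNA. SP5 was 10.06, 9.54, 9.50 and 9.20 in DMSO 1 to 4, 9.81, 9.54, 9.53 and 9.18 in DFO 1 to 4, 9.41, 9.38 and 9.02 in Deferasirox 1 to 3, and 9.47 and 9.43 in OICR623 1 and 2. The Deferasirox and OICR623 arrays lay below the DMSO arrays of their level, while in DFO only DFO 1 lay clearly lower (-0.26 in the high level, 0.01 and -0.02 in the middle and low levels). SP5 was not called at -0.18 under Deferasirox (interval -0.29 to -0.06, adjusted p = 0.084), -0.12 under OICR623 (-0.25 to 0.02) or -0.07 under DFO (-0.17 to 0.04); the Deferasirox value passed when dim genes were left out (adjusted p = 0.048) and with trended, robust moderation (adjusted p = 0.029). LEF1 ranged from 10.84 to 11.66 in DMSO, 10.82 to 11.66 in DFO, 10.76 to 11.23 in Deferasirox and was 11.30 in both OICR623 arrays. Its differences of -0.02 (interval -0.09 to 0.06), -0.07 (-0.15 to 0.02) and 0.03 (-0.07 to 0.13) under DFO, Deferasirox and OICR623 were not called.

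**Figure D3:**
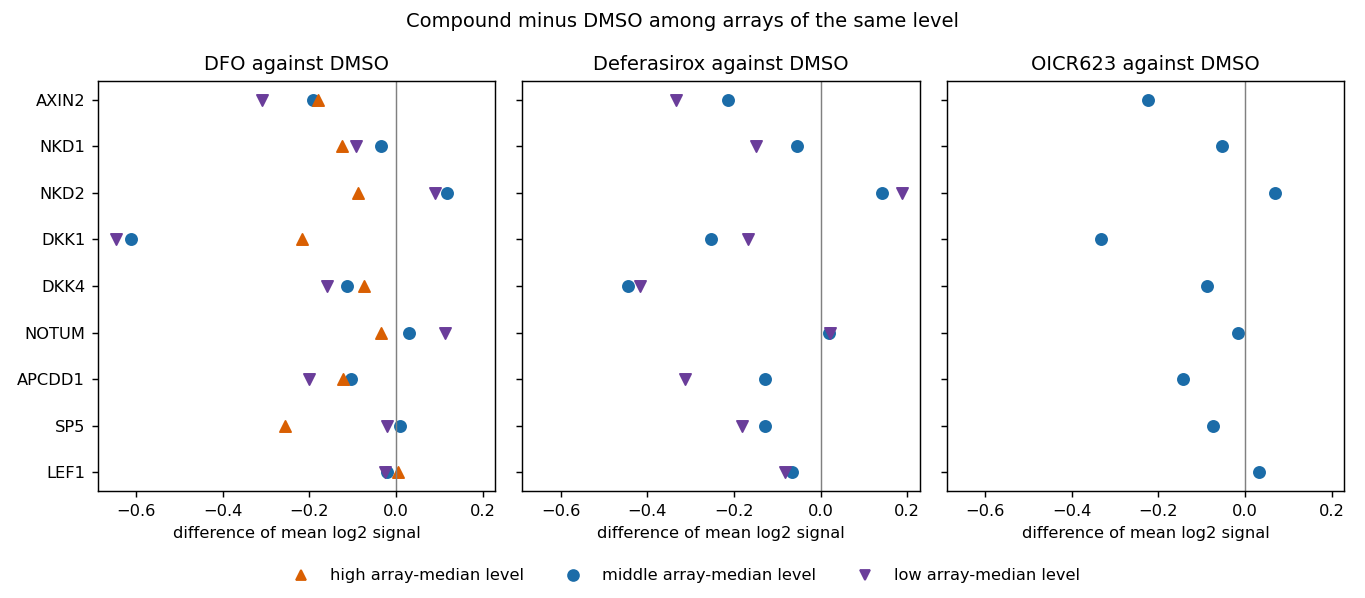
Difference of mean log2 signal between each compound and DMSO (x axis) for each gene (y axis), computed within each array-median level that holds both groups. AXIN2, NKD1, DKK1, DKK4 and APCDD1 lie below 0 at every point, and NKD2, NOTUM, SP5 and LEF1 lie on both sides of 0. DKK1 under DFO lies near -0.6 in 2 levels and at -0.22 in the high level.

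Between compounds, whose labelled doses differ, 0 of the 9 genes were called. At an unadjusted p under 0.05 they were 2 for Deferasirox against DFO (DKK1 and DKK4), 1 for OICR623 against DFO (DKK1) and 1 for OICR623 against Deferasirox (DKK4). By adjusted p, few genes of any kind were called between compounds, 0.0435%, 0.168% and 0.0869% in the same order. Under OICR623 against DMSO, with 2 arrays, 3 of the 9 genes (AXIN2, DKK1 and APCDD1) had an unadjusted p under 0.05 and 0 were called. The share of all genes at an unadjusted p under 0.05 is not given, so these unadjusted counts cannot be read as an excess.

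Other genes of the pathway were followed as lists. Of 30 measured Wnt target genes outside the 9, 10 fell and 3 rose under DFO, 8 fell and 5 rose under Deferasirox, and 3 fell and 1 rose under OICR623, by the same test. Over all genes 2.72% fell and 1.89% rose under DFO, 3.0% and 2.83% under Deferasirox, and 0.397% and 0.337% under OICR623. Without a block 1, 1 and 0 of the 30 were called in the same order. The list was chosen with earlier results of these data known, so its counts are not a test of Wnt targets as a class. The medians of this list with the block were 0.00, -0.04 and -0.06. The called members with the smallest adjusted p were BAMBI, a pseudoreceptor that dampens TGF-beta signalling, CEMIP, which binds hyaluronan, and the transcription factor gene PROX1 under DFO (-1.02, 0.86 and -0.63), BAMBI, CEMIP and PROX1 under Deferasirox (-1.10, 0.97 and -0.65), and BAMBI, CEMIP and PROX1 under OICR623 (-0.84, 0.79 and -0.50). These differences were larger in size than any of the 9 genes under the same compound.

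In the 4 lists that follow, few genes were called with the block, to be read against the same shares of all genes, and 0 were called without it under any compound. Counts at an unadjusted p under 0.05 have no share of all genes beside them and cannot be read as an excess. These lists too were chosen with earlier results of these data known. Of 16 genes of the destruction complex and its regulators 1 fell under DFO and under Deferasirox, AMER1, an APC-binding protein (-0.44 and -0.50), and none rose; under OICR623 0 were called (1 at an unadjusted p under 0.05). CTNNB1, which encodes beta-catenin, stood at -0.04, -0.02 and 0.00 under DFO, Deferasirox and OICR623 and was not called. Of 16 nuclear partners of beta-catenin and TCF, TCF7L1, a TCF that mainly represses, rose under DFO (0.33) and Deferasirox (0.46; 0.25 without a block), and the corepressor TLE3 fell (-0.15 and -0.22); BCL9, a coactivator, fell under Deferasirox (-0.52), and 0 were called under OICR623 (2 at an unadjusted p under 0.05). Of 15 Frizzled, LRP and related receptors FZD10 rose under DFO (0.40) and Deferasirox (0.55), with 0 called under OICR623 (2 at an unadjusted p under 0.05). None of 14 other secreted or surface antagonists was called under any compound (3, 1 and 1 at an unadjusted p under 0.05 under DFO, Deferasirox and OICR623); WIF1 and KREMEN1 stand in this list and in that of targets.

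Calls among the Wnt genes depended on how the levels were handled, as the plot of settings shows for the 3 called differences and for AXIN2 under DFO.

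**Figure D4:**
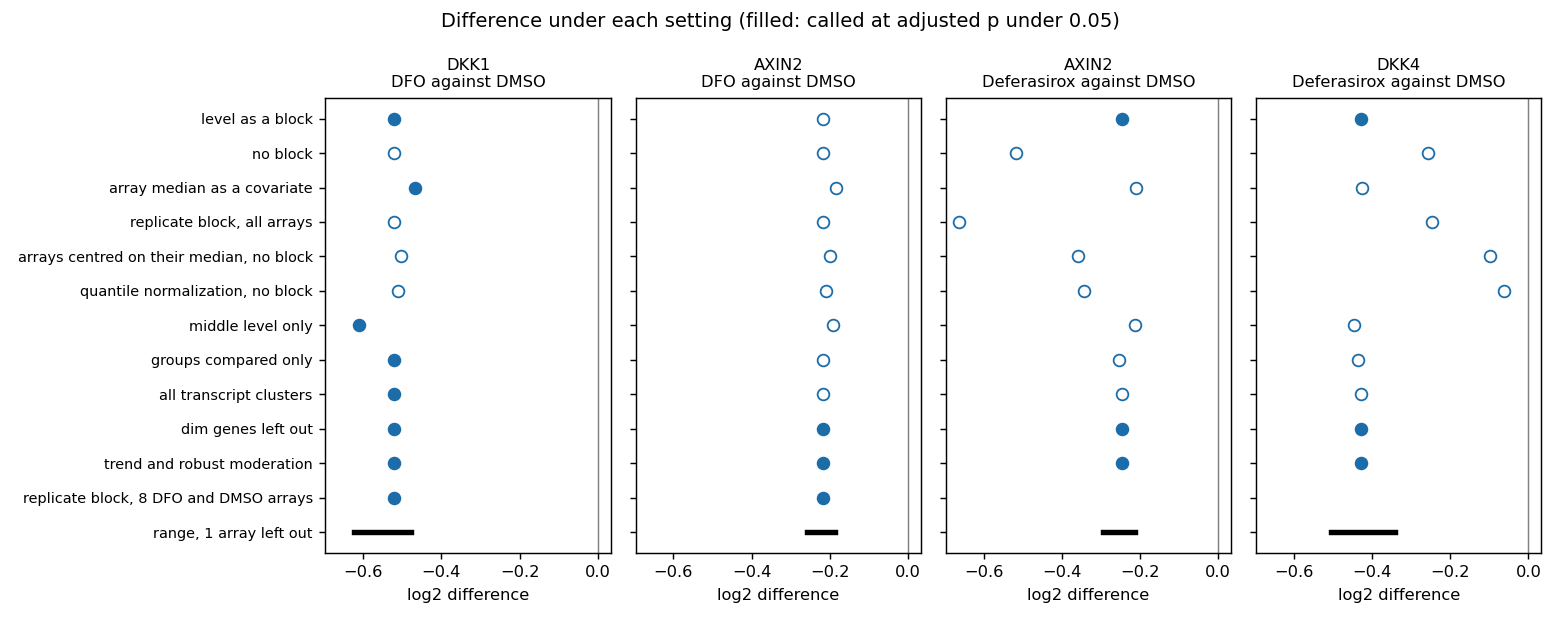
Log2 difference from DMSO (x axis) under each setting of the fit (y axis), for DKK1 and AXIN2 under DFO and AXIN2 and DKK4 under Deferasirox; filled points are called and bars span the 13 fits without 1 array. All values lie below 0; without a block AXIN2 under Deferasirox moves to -0.52 and DKK4 to -0.26, and in that setting no point is filled.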

How the data were processed

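RNA of 13 SW480 cultures was hybridised to 1 Affymetrix array each. The authors deposited 1 log2 signal per transcript cluster and array; per the submitters' processing notes GCRMA and limma were used, with no version or role given, and the deposited log2 values were taken as they are (range 1.24 to 14.9). Of 32321 transcript clusters, 19158 had 1 gene symbol, 1388 several and 11775 none in the platform annotation; the row with the highest mean was kept for each gene, leaving 18404 genes with no filter on dim ones.

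Groups came from the sample titles. Array medians more than 0.05 apart split the arrays into 3 levels. limma 3.58.1 (R 4.3.3) was fitted to all genes and 13 arrays with group means and the level as a block (7 residual degrees of freedom), with empirical Bayes moderation. The script was tested on simulated data. The members, the level block, the gene lists and the alternatives were chosen with earlier results of these data known. The genes named are all members, the check genes, the cell type markers and the genes most like AXIN2 and DKK1. Of each list and comparison at most 3 called genes are named, by smallest adjusted p. CTNNB1, as the gene of beta-catenin, and WIF1 and KREMEN1, which stand in 2 lists, are named without a call.

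Deviations from group means of same-numbered DMSO and DFO arrays correlated at 0.95, 0.66, 0.74 and 0.79 across genes, so the numbers were also fitted as a block. Same-numbered DMSO and DFO arrays share a level, and their numbers 2 and 3 both lie in the middle level. Among the DMSO and DFO arrays the number therefore divides more finely than the level does. Over all arrays the number cuts across levels. Deferasirox 1 and OICR623 1 are of the middle level, whereas DMSO 1 and DFO 1 are of the high level. Deferasirox 3 is of the low level, whereas DMSO 3 and DFO 3 are of the middle level. For Deferasirox (-0.06, 0.33 and -0.32) and OICR623 (0.29 and -0.01) the same numbers did not pair with DMSO. In the listed order of samples, OICR623 1 and Deferasirox 1 follow DMSO 2 and DFO 2. OICR623 2 and Deferasirox 2 follow DMSO 3 and DFO 3, and Deferasirox 3 follows DMSO 4 and DFO 4. The arrays that stand together in this order share a level, and a pairing by this order was not fitted. The titles call the replicates biological and the series text independent experiments. The number of arrays limits the precision.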

Additional observations from a re-analysis of the deposited data

How the results depend on the processing

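With the level block, calls were made for 1 of the 9 genes under DFO, 2 under Deferasirox and 1 in the test over all groups. Without a block, with arrays centred on their median, with quantile normalization, and with a replicate block over all arrays, each of these 3 counts was 0. With the array median as a covariate or the middle level alone, the count under DFO stayed at 1, and the other 2 counts were 0. Fits to the groups compared only, or to all transcript clusters, gave 0 under Deferasirox. Leaving out dim genes gave 2 under DFO, 4 under Deferasirox and 2 over all groups, and trend and robust moderation gave 3, 4 and 3, and 1 for Deferasirox against DFO. The replicate block on the 8 DFO and DMSO arrays gave 2 under DFO. Leaving out 1 array gave 1 to 2 under DFO, 0 to 2 under Deferasirox and 0 to 1 over all groups. It was 0 over all groups without DMSO 4 or DFO 4. The counts for OICR623 against DMSO, DFO or Deferasirox were 0 in every fit run. Among 1251 single differences under alternatives, 33 lost a call, 13 gained one and 0 called values changed sign; 89 uncalled values changed sign. The cause of these changes was not tested, except that the middle level alone and the fits to 2 groups hold fewer arrays.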

Other observations

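After the mean of each level was taken from the values, the members varied together to different degrees over the 13 arrays. Pearson correlations, which are descriptions and carry the treatment differences and the shared arrays, were 0.90 for AXIN2 and APCDD1, 0.90 for NKD1 and APCDD1 and 0.82 for AXIN2 and NKD1. DKK4 and SP5 correlated with AXIN2, NKD1 and APCDD1 at 0.63 to 0.75. DKK1 and LEF1 correlated less with these genes. DKK1 had 0.57 for AXIN2, 0.24 for NKD1 and 0.39 for APCDD1, and 0.02 for DKK4. LEF1 had 0.33 for AXIN2, 0.26 for NKD1 and 0.27 for APCDD1. NKD2 and NOTUM ran below 0 with AXIN2, at -0.53 and -0.45.

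By the rule for the genes most like a member, DKK1 was closest to MYC, the proto-oncogene and Wnt target, with a correlation of 0.98 over the 13 arrays. MYC stood at -0.41 under DFO, where it was called, and at -0.14 and -0.27 under Deferasirox and OICR623, where it was not, beside -0.52, -0.17 and -0.28 for DKK1. The next 4 genes, WDR25, NKAPD1, ALKBH2 and PPP4R1L, correlated at 0.93 to 0.92. AXIN2 was closest to ZNF594, SETD4, SLX4IP, AMBRA1 and PRMT6, at 0.98 to 0.96, with ZNF594 at -0.49, -0.56 and -0.60 under DFO, Deferasirox and OICR623.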
